A study of Mus musculus with 4 samples.

Results

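The genes described here encode the machinery of MHC class I antigen presentation: H2-K1, H2-D1, B2m, Tap1, Tap2, Tapbp, Psmb8, Psmb9, Psmb10 and Nlrc5. These 10 genes were chosen by name, and every probe set whose platform annotation gave exactly 1 gene symbol, and that symbol one of theirs, was kept. That gave 27 probe sets for the 10 genes, out of 34945 single-gene probe sets for 18193 genes in all. The probe set with the highest mean signal over the arrays represented each gene, and the others were used to check it. RNA was measured on 4 Affymetrix arrays, 2 in each of 2 groups of mice that carried flank tumours of 293EBNA cells, a line derived from human embryonic kidney, grown to 2000 mm3. In the Apex group the tumour cells held the empty APEX vector, and in the VEGFD group the vector held VEGFD, the gene of the lymphatic growth factor VEGF-D. In both groups the RNA was labelled as that of endothelial cells, taken by magnetic sorting from collecting lymphatic vessels that a blue dye injected into the tumour had marked, although 1 of the protocols names lymph node endothelium. Nothing read for this work states the mouse strain, age or sex, the immune cells the host mice still had, the sorting marker, or whether a replicate was 1 mouse or a pool. The labels call the arrays of each group biological replicates, without more detail. The tests therefore measure the spread between these arrays, which may in part be technical. Apex replicate 2 stood apart in most, but not all, of the endothelial marker genes measured. On 3 of the 4 arrays the defining endothelial genes Pecam1 and Cdh5 had signals of at most 13.0, against 141 and 146 in Apex replicate 2. Prox1, the transcription factor gene of lymphatic identity, did not exceed 11.6 on any array, and the differences of the members that the results turn on are also given without Apex replicate 2.

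MHC class I molecules carry short peptides from inside the cell to its surface, where cytotoxic T cells inspect them. The proteasome cuts proteins into peptides, and under interferon it takes in the inducible catalytic subunits encoded by Psmb8, Psmb9 and Psmb10 in place of the constitutive ones. The transporter made of Tap1 and Tap2 moves peptides into the endoplasmic reticulum, where tapasin, the product of Tapbp, holds empty class I molecules to the transporter until a peptide fits. The class I molecule itself is a heavy chain, such as those of H2-K1 and H2-D1, bound to beta-2 microglobulin from B2m, and Nlrc5 encodes a transcriptional coactivator of these genes. Endothelial cells carry class I at rest, and interferons raise it. In the RefSeq table of GRCm38.p6, Psmb9, Tap1, Psmb8 and Tap2 follow each other on chromosome 17 with no other protein-coding gene between them.

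The promoter windows below are shown because the 3 genes of the class I molecule and Tap1 differed in how their signals ordered the arrays, and because Tap1 shares its window with a second member. Each window is RefSeq sequence of GRCm38.p6, 250 bases before to 50 after a gene's start, printed 5′ to 3′ on the gene's strand. Capitals mark letters matching any of 5 motifs searched on both strands: the interferon-stimulated response element in 2 forms (GAAANNGAA and GAANNGAAA), a kappa B form (GGGATTCCC), the core of the cyclic AMP response element (TGACG) and the CCAAT box (CCAAT). The motif letters, the exact kappa B form above all, were chosen after the windows had been read, so the counts of matches are a description. The 2 interferon forms can overlap each other, but no matches overlap in the windows printed. H2-K1 (chr17:34000298-34000597, minus strand), H2-D1 (chr17:35262844-35263143, plus strand), B2m (chr2:122147437-122147736, plus strand) and Tap1 (chr17:34187306-34187605, plus strand) read as follows.
H2-K1: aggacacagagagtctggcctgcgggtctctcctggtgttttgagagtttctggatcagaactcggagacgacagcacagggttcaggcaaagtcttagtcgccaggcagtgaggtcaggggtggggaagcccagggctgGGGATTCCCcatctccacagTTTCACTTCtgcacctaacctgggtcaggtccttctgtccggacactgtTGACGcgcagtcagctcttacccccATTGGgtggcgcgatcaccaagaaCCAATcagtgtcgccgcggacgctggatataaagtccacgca
H2-D1: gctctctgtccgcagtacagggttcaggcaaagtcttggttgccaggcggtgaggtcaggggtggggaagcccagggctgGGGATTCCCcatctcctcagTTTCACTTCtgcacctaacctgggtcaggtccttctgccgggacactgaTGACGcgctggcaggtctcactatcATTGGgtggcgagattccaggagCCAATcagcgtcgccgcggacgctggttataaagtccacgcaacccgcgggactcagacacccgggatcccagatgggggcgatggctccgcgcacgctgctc
B2m: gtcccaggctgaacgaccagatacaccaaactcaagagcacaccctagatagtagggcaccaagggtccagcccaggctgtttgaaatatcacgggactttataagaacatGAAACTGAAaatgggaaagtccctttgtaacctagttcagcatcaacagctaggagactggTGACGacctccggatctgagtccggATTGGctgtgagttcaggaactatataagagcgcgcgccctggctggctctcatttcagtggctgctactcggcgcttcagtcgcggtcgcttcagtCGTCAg
Tap1: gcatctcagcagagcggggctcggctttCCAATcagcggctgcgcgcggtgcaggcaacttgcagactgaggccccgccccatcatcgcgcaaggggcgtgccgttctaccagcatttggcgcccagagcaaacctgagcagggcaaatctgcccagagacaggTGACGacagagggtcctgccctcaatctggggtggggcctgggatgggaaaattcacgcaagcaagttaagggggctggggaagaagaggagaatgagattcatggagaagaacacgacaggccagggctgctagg
The H2-K1 and H2-D1 windows had a run of 47 bases in common that held the kappa B match, and in both an interferon form (GAANNGAAA, read here as TTTCACTTC) followed it. H2-K1 has another listed start, and that window is shifted by 14 bases. The B2m window held the other interferon form (GAAACTGAA) and no match to the exact kappa B form. The Tap1 window held neither interferon form, and 275 of its bases are also in the window of Psmb9, which is read from the opposite strand. Windows were found for 8 of the 10 members. Among these GAANNGAAA was in 2, GAAANNGAA in 1, GGGATTCCC in 2, TGACG in 5 and CCAAT in 6. Over all 32851 windows in the table, GAANNGAAA was in 7.52%, GAAANNGAA in 8.56%, GGGATTCCC in 0.353%, TGACG in 20.8% and CCAAT in 37.4%. Another pattern, GGG and CCC with any 5 bases between them, was searched first. It was in 5 of the 8 members' windows (H2-K1, H2-D1, B2m, Tap1 and Psmb9) and in 14.0% of all windows. It is longer than GGGATTCCC and need not match where that does, so the shares of the 2 describe different patterns. The Psmb8 and Psmb10 windows held no match to any of the 5, and Psmb8, like the heavy chain genes, had its lowest signal in Apex replicate 2. Whether the motifs bear on the signals was not tested. These are matches of letters in the C57BL/6J reference, and the strain of these mice is not given, which matters for the highly polymorphic H2 genes.

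No member passed the test. VEGFD and Apex arrays were compared over all 11677 genes kept by a filter on dim probe sets, with limma on log2(signal + 16), two-sided, with Benjamini-Hochberg adjustment, and 0% of all tested genes had an adjusted p below 0.05. With the replicate number as a block 0.0514% of them did, none of these a member. All 10 members were kept by the filter, 5 had a higher and 5 a lower mean in VEGFD arrays, and 46.4% of all tested genes had a higher one. The median log2 difference of the members was 0.041, beside -0.035 over all tested genes, and it ran from -0.12 to 0.19 with 1 array left out. Both VEGFD signals lay above both Apex signals for 3 members (H2-K1, H2-D1 and Psmb8), and this was so for 16.6% of all tested genes. Both lay below for another 3 (Tap1, Tapbp and Nlrc5), against 21.8% of all tested genes. With arrays centred on their medians, which shifted the median of all genes from -0.035 to 0.088, the shares over all genes were 24.4% above and 14.7% below, while the members again had 3 and 3. At an unadjusted p under 0.05 there was 1 member, Tapbp, where 5.7% of all tested genes had such a p. Below, signals are on the linear scale of the deposited values. Each difference is the VEGFD mean minus the Apex mean of log2(signal + 16), given with its limma standard error (SE) and 95% interval, n = 2 and 2.

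**Figure D1:**
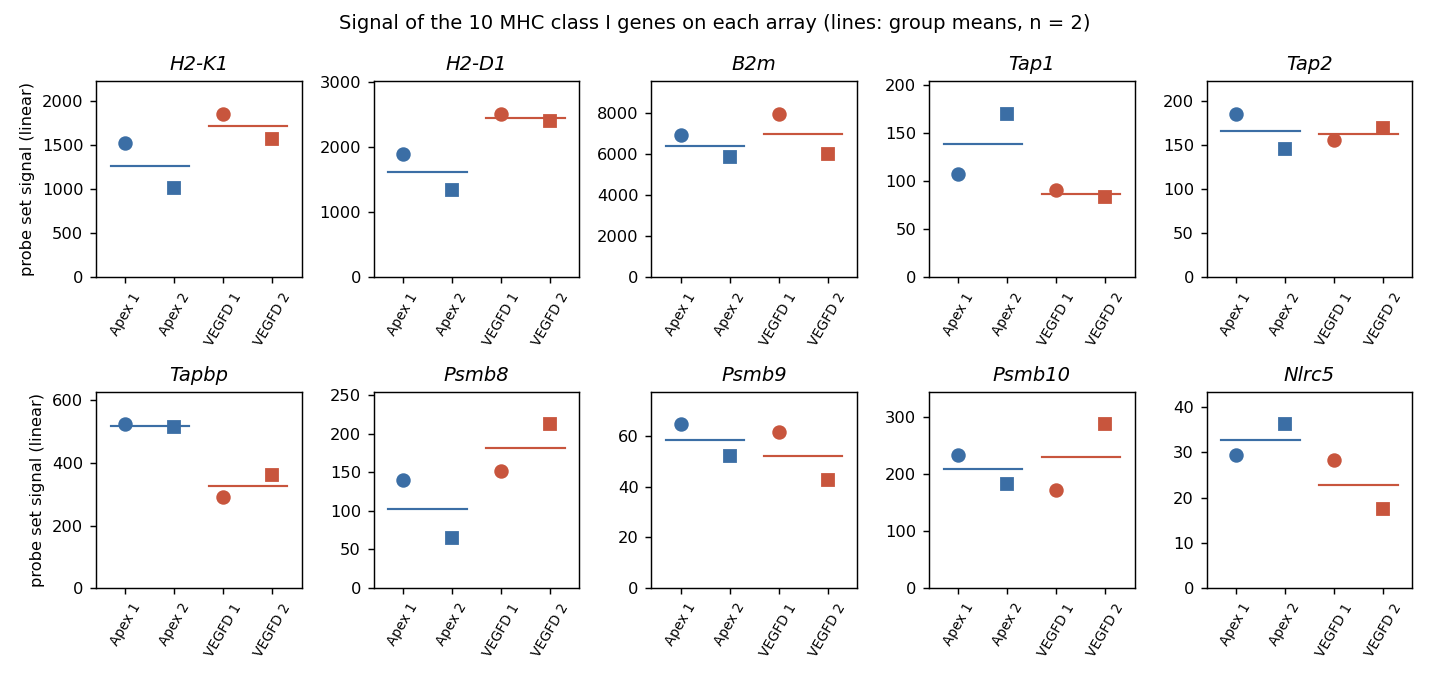
Linear signal of the representative probe set of each of the 10 genes (1 panel a gene, each vertical axis from 0) on the Apex (blue) and VEGFD (red) arrays; circles are replicate 1, squares replicate 2 and lines the group means of 2 arrays. H2-K1, H2-D1 and Psmb8 have both VEGFD arrays above both Apex arrays, and Tap1, Tapbp and Nlrc5 have both below.

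The representative probe sets of H2-K1 and H2-D1 had more signal in both VEGFD arrays than in either Apex array, and in such bulk RNA fewer cells of a type and less RNA per cell cannot be told apart. H2-K1, a classical heavy chain gene, had signals of 1521 and 1010.4 in Apex replicates 1 and 2, and of 1854 and 1573 in VEGFD replicates 1 and 2. Its difference was 0.46 ± 0.28 (SE), a 1.37-fold higher level, with a 95% interval from -0.24 to 1.16 and a limma adjusted p of 0.826. The gap between its Apex arrays, 0.58, was wider than the difference between the groups. H2-D1, the other classical heavy chain gene measured, had signals of 1889 and 1345 in the Apex arrays and of 2513 and 2395 in the VEGFD arrays. Its difference was 0.62 ± 0.25 (SE), or 1.53-fold, with an interval from -0.0061 to 1.24 and a limma adjusted p of 0.823. This was larger than the gap within either group, 0.48 between the Apex arrays and 0.069 between the VEGFD arrays. In both representative probe sets Apex replicate 2 had the lowest signal and VEGFD replicate 1 the highest. Some other probe sets of each gene were highest in VEGFD replicate 2. B2m, whose product is the shared light chain, had signals of 6928 and 5884.5 in the Apex arrays and of 7972 and 6032 in the VEGFD arrays, so the groups overlapped. Its difference was 0.12 ± 0.23 (SE), with an interval from -0.47 to 0.71 and a limma adjusted p of 0.918.

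The other probe sets of the heavy chain genes that were bright enough to pass the filter also had a higher mean in VEGFD arrays. H2-K1 had 4 probe sets and H2-D1 had 9, and 11 of the 13 were of the _x_at kind, whose probes can also bind transcripts of related genes, so the signals cannot be assigned to H2-K1 or H2-D1 alone. A further 3 probe sets named a member together with another gene and were left out. Of the 13, 8 had a mean above the filter signal of 25.3, and these 8 all had a higher mean in VEGFD arrays, 6 of them without overlap. Over all tested genes, each by 1 probe set, 46.4% had a higher mean and 16.6% lay above without overlap. Shares over all probe sets were not computed. All 8 were lowest in Apex replicate 2. The 5 below the filter, all of H2-D1, had differences from -0.12 to 1.01. With the probe sets of a gene averaged, the difference was 0.76 for H2-K1 and 0.45 for H2-D1. Among the 8 the widest difference was 1.55 in an H2-K1 probe set with signals of 299, 91.0, 400 and 675, in the order Apex replicates 1 and 2 and VEGFD replicates 1 and 2, and the narrowest was 0.24 in another H2-K1 probe set with 93.0, 48.5, 77.4 and 89.0. The brighter of the H2-D1 probe sets not of the _x_at kind had signals of 90.8, 50.7, 140.02 and 146 in the same order and a difference of 0.91. Probe sets that share a gene, or a family of similar genes, are not replicates of each other. The second B2m probe set had a difference of 0.28, with the groups again overlapping (4988 and 4335 against 6435 and 4958).

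**Figure D2:**
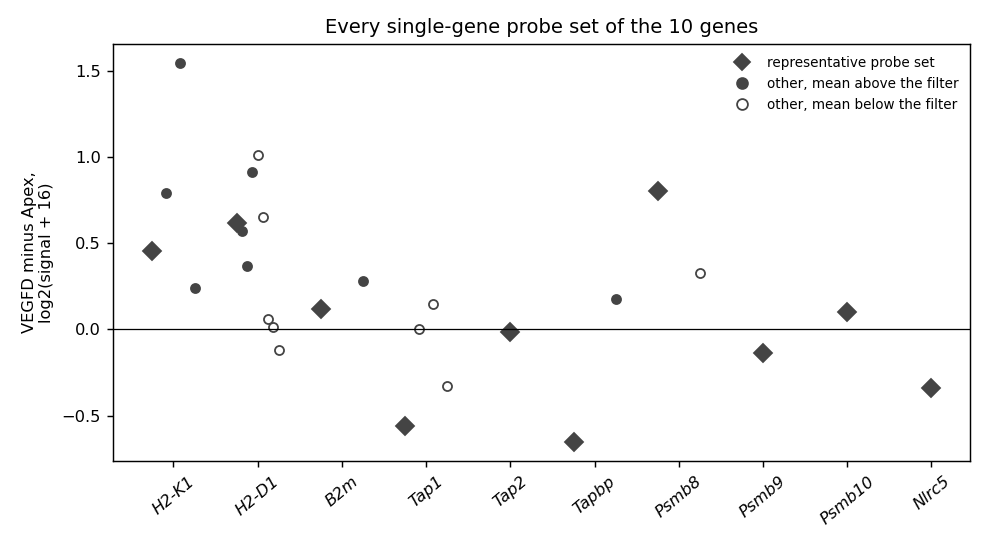
Difference between VEGFD and Apex arrays, on the log2(signal + 16) scale, of each of the 27 single-gene probe sets of the 10 genes (horizontal axis); diamonds are the representative probe sets, filled circles the others with a mean above the filter and open circles those below it. The filled H2-K1 and H2-D1 symbols all lie above 0, from 0.24 to 1.55, and the 2 Tapbp symbols lie on opposite sides of 0.

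Among the genes of peptide transport and loading, Tapbp and Tap1 had less signal in both VEGFD arrays than in either Apex array, and Tap2 overlapped. Tapbp, the tapasin gene, had signals of 523 and 516 in the Apex arrays and of 291 and 360.5 in the VEGFD arrays. Its difference was -0.65 ± 0.23 (SE), with a 1.57-fold higher level in Apex arrays, an interval from -1.24 to -0.066 and a limma adjusted p of 0.823. The gap between the Apex arrays was 0.020 and between the VEGFD arrays 0.29, both narrower than the difference between the groups. The second Tapbp probe set, with signals of 74.1, 41.3, 66.5 and 64.1 in the same array order, had a difference of 0.18 and overlapping groups, so the probe sets of this gene disagreed in sign, and with them averaged the difference was -0.24. Tap1, which encodes a chain of the peptide transporter, had signals of 107 and 170.3 in the Apex arrays and of 90.7 and 83.1 in the VEGFD arrays. Its difference was -0.56 ± 0.30 (SE), or 1.47-fold higher in Apex arrays, with an interval from -1.32 to 0.20 and a limma adjusted p of 0.824. The gap between its Apex arrays, 0.59, was wider than the difference between the groups. Apex replicate 2, the lowest array for the heavy chains, was the highest for Tap1. The other 3 Tap1 probe sets had means below the filter, from 3.64 to 6.64, and could not check it. Tap2, which encodes the partner chain, had signals of 186 and 146 in the Apex arrays and of 156 and 169.9 in the VEGFD arrays, and the VEGFD arrays lay between the Apex arrays. Its difference was -0.015 ± 0.25 (SE), with an interval from -0.65 to 0.62 and a limma adjusted p of 0.988.

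Of the inducible proteasome subunits, Psmb8 had both VEGFD arrays above both Apex arrays, and the other two overlapped. Psmb8 (LMP7), which takes the place of the constitutive subunit from Psmb5, had signals of 140.0 and 64.6 in the Apex arrays and of 152 and 212 in the VEGFD arrays. Its difference was 0.80 ± 0.40 (SE), or 1.74-fold, with an interval from -0.20 to 1.80 and a limma adjusted p of 0.823. The gap between its Apex arrays, 0.95, was wider than that. Psmb9 (LMP2), the counterpart of Psmb6, had signals of 64.5 and 52.3 in the Apex arrays and of 61.7 and 42.5 in the VEGFD arrays, and a difference of -0.14 ± 0.29 (SE) with an interval from -0.87 to 0.60. Psmb10 (MECL-1), the counterpart of Psmb7, had signals of 234 and 183 in the Apex arrays and of 171 and 287 in the VEGFD arrays. The VEGFD arrays held both its lowest and its highest signal, and the difference was 0.098 ± 0.33 (SE) with an interval from -0.72 to 0.92. Psmb8 and Tap1 are neighbours on chromosome 17, as are Psmb9 and Tap1, and the signals of Psmb8 and Tap1 put the groups in opposite order. Nlrc5, the coactivator gene, was near the filter signal of 25.3 on every array, at 29.4 and 36.2 in the Apex arrays and 28.2 and 17.5 in the VEGFD arrays. Its difference was -0.34 ± 0.30 (SE), with an interval from -1.10 to 0.43 and a limma adjusted p of 0.835, and it was -0.16 with a pseudocount of 64. The gap between its VEGFD arrays, 0.40, was wider than the difference between the groups.

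**Figure D3:**
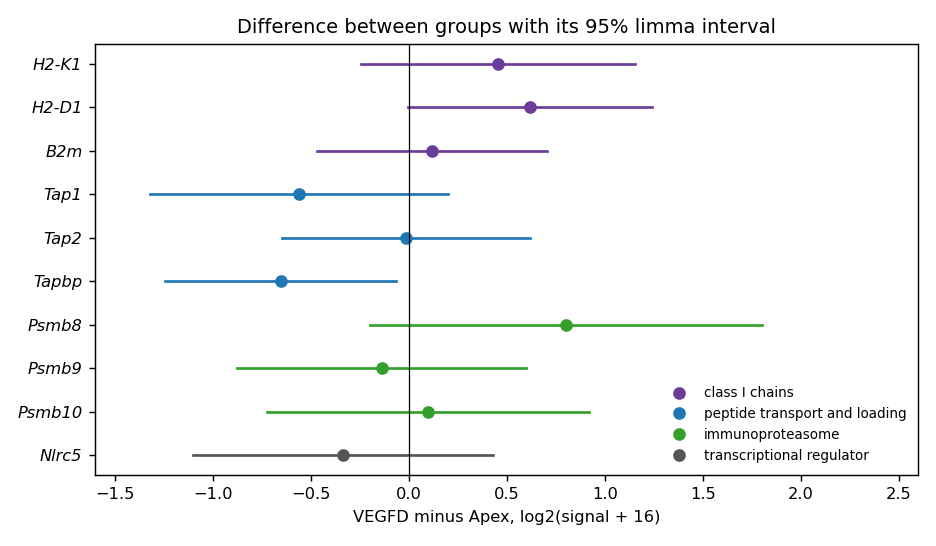
Difference between VEGFD and Apex arrays on the log2(signal + 16) scale for the 10 genes (points) with 95% limma intervals (lines), coloured by role, n = 2 and 2 arrays. All intervals except that of Tapbp include 0, and none of the 10 passes after adjustment over all 11677 genes.

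The size of these differences depended on which array was left out. With 2 arrays a group, leaving out either array of a group moves a difference by the same amount in opposite directions. Without Apex replicate 2 the difference was 0.17 for H2-K1, 0.37 for H2-D1, 0.33 for Psmb8 and -0.26 for Tap1, while Tapbp was at -0.66. Without Apex replicate 1 the values were 0.75, 0.86, 1.28, -0.86 and -0.64 in the same order. Without VEGFD replicate 1 they were 0.34, 0.58, 1.02, -0.61 and -0.51, and without VEGFD replicate 2 they were 0.57, 0.65, 0.58, -0.51 and -0.80. The signs of these 5 genes and of Nlrc5 were the same with any 1 array left out. Their groups did not overlap, so that outcome was fixed in advance and is no further evidence. The signs of B2m, Tap2, Psmb9 and Psmb10 did not all stay the same, each changing in at least 1 of these fits. No member passed in any of these fits, where the single array left in a group was assumed to vary like the other group.

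**Figure D4:**
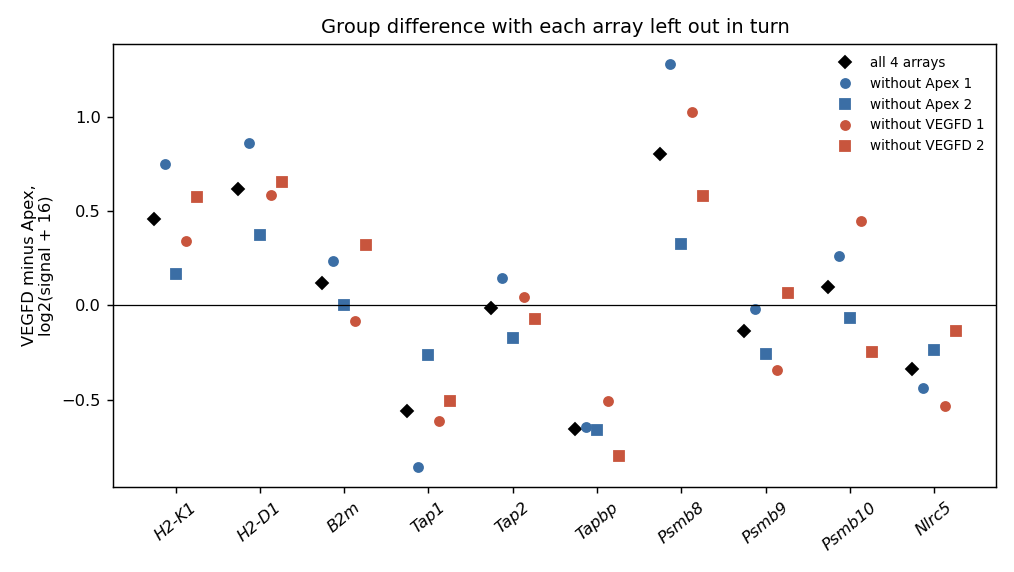
Difference between VEGFD and Apex arrays on the log2(signal + 16) scale for the 10 genes with all 4 arrays (black diamonds) and with each array left out in turn (blue, an Apex array left out; red, a VEGFD array left out). H2-K1, H2-D1 and Psmb8 come closest to 0 without Apex replicate 2, at 0.17, 0.37 and 0.33, and Tapbp stays at -0.51 or lower throughout.

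Interferon-stimulated genes, which share inducers with the class I genes, had the same low array. Of 20 tested genes of this list, 17 had their lowest signal in Apex replicate 2, as did 5 of the 10 members (H2-K1, H2-D1, B2m, Tap2 and Psmb8) and 24.8% of all tested genes. Bst2, which encodes the antiviral membrane protein tetherin, had signals of 985, 174, 918 and 789 in the order Apex replicates 1 and 2 and VEGFD replicates 1 and 2. Oasl2, of the oligoadenylate synthetase family, had 363, 40.3, 352 and 242. Their differences of 0.99 ± 0.76 (SE) and 1.08 ± 0.88 were -0.21 and -0.30 without Apex replicate 2. Over all tested genes 46.4% had a higher mean in VEGFD arrays, 16.6% lay above without overlap and 21.8% below. In the interferon-stimulated list 17 genes had a higher and 3 a lower mean, with a median difference of 0.44. There, 0 lay above without overlap, 1 (Iigp1, an interferon-inducible GTPase gene) lay below, and 0 passed the limma threshold. The median deviation from each gene's own mean over the arrays was -0.88 in Apex replicate 2 for this list and -0.16 for the members. Tap1, Psmb9, Psmb10, Nlrc5 and the representative probe set of Tapbp were not lowest in Apex replicate 2, and Tap1 and Nlrc5 were highest there. The second Tapbp probe set was lowest in that array.

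**Figure D5:**
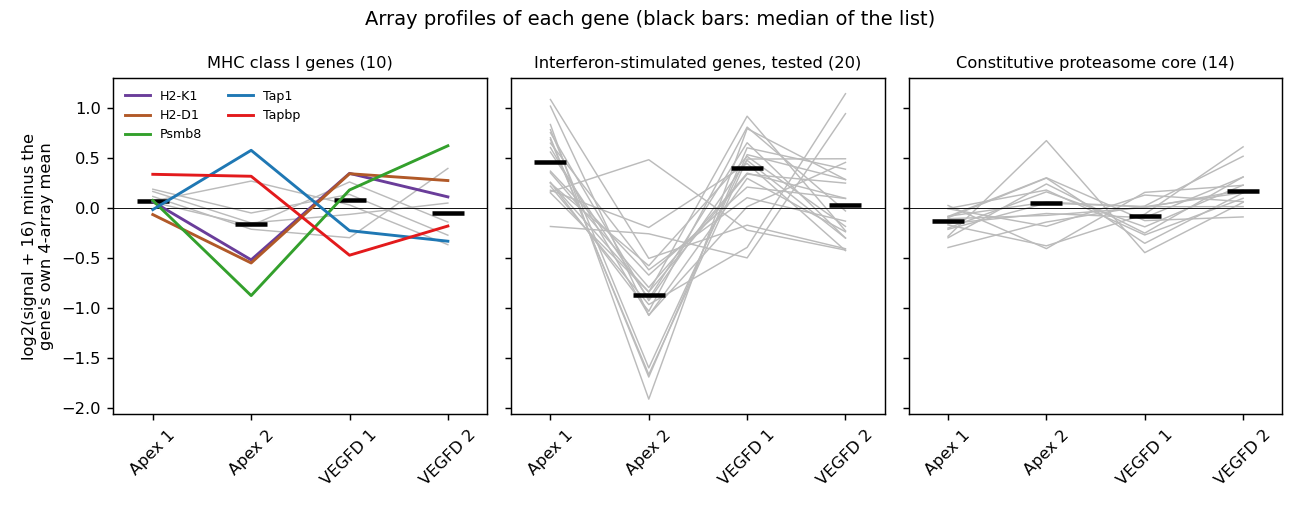
Each gene's log2(signal + 16) minus its own mean over the 4 arrays, on each array, for the 10 MHC class I genes, the 20 tested interferon-stimulated genes and the 14 genes of the constitutive proteasome core; black bars are list medians. In Apex replicate 2 the median is -0.88 for interferon-stimulated genes, -0.16 for the MHC class I genes and 0.053 for the proteasome core, and Tap1 (blue line) peaks where H2-K1, H2-D1 and Psmb8 dip.

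The rest of the presentation pathway was compared in the same fit, and 0 genes of any of these lists passed the limma threshold. Beside the counts that follow, 46.4% of all tested genes had a higher mean in VEGFD arrays. Of 11 other class I and class I-like heavy chain genes with a single-gene probe set, out of 23 listed, 7 were tested, 4 with a higher and 3 with a lower mean in VEGFD arrays (median difference 0.066). H2-M3, a nonclassical heavy chain gene, had signals of 205, 73.0, 278 and 149 in the same array order, again lowest in Apex replicate 2, and a difference of 0.65 ± 0.53 (SE). Hfe, a class I-like gene of iron control, had 129.5, 129, 129 and 49.0 and a difference of -0.58 ± 0.43 (SE), which was all in VEGFD replicate 2. Of 7 tested chaperones, loading factors and trimming enzymes 4 were higher and 3 lower (median 0.095). Pdia3, which encodes the ERp57 of the loading complex, had signals of 4271 and 4149.8 in the Apex arrays and of 5054 and 5274 in the VEGFD arrays, without overlap, and a difference of 0.29 ± 0.19 (SE), but -0.12 with its probe sets averaged. Hspa5, which encodes the chaperone BiP, had 0.36 ± 0.22 (SE), also without overlap.

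The constitutive proteasome core had 10 of 14 tested genes with a higher mean in VEGFD arrays and 4 with a lower, 5 without overlap above and 1 below, and a median difference of 0.11. Over all tested genes 46.4% had a higher mean, 16.6% lay above without overlap and 21.8% below. The direct counterparts of the inducible subunits, chosen for that role and outside the rule for named genes except Psmb7, were at 0.041 ± 0.26 (SE) for Psmb5, 0.059 ± 0.31 for Psmb6 and 0.54 ± 0.26 for Psmb7. Psmb7 had signals of 2017 and 2410 in the Apex arrays and of 2695 and 3813 in the VEGFD arrays. Psmb2, a structural subunit gene of the same ring, had 0.55 ± 0.30 (SE). Without VEGFD replicate 2 Psmb7 was at 0.29 and Psmb2 at 0.21, and without VEGFD replicate 1 Psmb2 was at 0.89. Of 5 tested proteasome activator and assembly genes 3 were higher and 2 lower (median 0.11), with Psme3, the gene of a nuclear activator, at 0.38 ± 0.30 (SE) and Psmf1, the gene of a proteasome inhibitor, at 0.28 ± 0.23, or -0.25 with its probe sets averaged. Psme3 was at 0.12 without VEGFD replicate 2, 0.16 without Apex replicate 1, 0.60 without Apex replicate 2 and 0.63 without VEGFD replicate 1, and Psmf1 at 0.17 without VEGFD replicate 2.

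Among 13 tested transcription factors that act on class I promoters, 4 had a higher and 9 a lower mean in VEGFD arrays, with a median of -0.16. Irf2, which encodes an interferon regulatory factor that binds response elements, had signals of 150.1 and 117 in the Apex arrays and of 77.0 and 94.4 in the VEGFD arrays, without overlap, and a difference of -0.55 ± 0.27 (SE). Irf9, which encodes the DNA-binding part of the interferon-activated complex ISGF3, had -0.38 ± 0.45 (SE). Of 9 tested interferon receptor and signalling genes 6 were higher and 3 lower (median 0.26), 3 of them without overlap above and 2 below. Again, 46.4% of all tested genes had a higher mean, 16.6% lay above without overlap and 21.8% below. Jak1, a kinase gene of all interferon receptors, had signals of 1358 and 933 against 2237 and 1472 and a difference of 0.68 ± 0.32 (SE). Ifngr1, which encodes the ligand-binding chain of the interferon gamma receptor, had 586 and 417 against 325 and 289 and a difference of -0.66 ± 0.26 (SE). The limma adjusted p values of Jak1, Ifngr1 and Irf2 were all 0.823.

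Markers of the cells in the sample were measured beside these genes. The summed signal of 12 pan-endothelial markers, 7 of them tested, was 374 and 3762 in the Apex arrays and 383 and 252 in the VEGFD arrays. The array lowest for the heavy chains thus had the highest sum, of which Emcn made 2670. Tek (101 and 43.9 against 86.1 and 20.3) and Kdr (78.8 and 75.7 against 90.8 and 55.4) were not highest there. The other markers of this list were, Cldn5 only narrowly (30.3 and 32.6 in the Apex arrays). Leukocytes carry much class I, and 18 of 19 leukocyte markers were measured, 6 of them tested. Their summed signal was 868 and 954 in the Apex arrays and 703 and 848 in the VEGFD arrays. Csf1r, a receptor gene of macrophages, had 503 and 472 in the Apex arrays and 335 and 558 in the VEGFD arrays, the largest part of each sum. The other myeloid markers of the list were much dimmer than Csf1r. Itgam was at most 10.6 on any array, Adgre1 31.5, Tyrobp 33.3, Cd68 58.0 and Lyz2 91.9. Laptm5 had 60.5 and 104 against 48.9 and 48.5. Ptprc (CD45) was at most 13.0 and Cd3e at most 20.4 on any array, and Cd8a had 71.3, 46.5, 52.0 and 35.9. Of 8 measured MHC class II genes, which mark professional antigen-presenting cells, 2 passed the filter, and Cd74, the gene of their invariant chain, was at most 36.3 on any array. The summed signal of 9 fibroblast markers was 23064 and 20786 in the Apex arrays and 22154 and 20814 in the VEGFD arrays, with Col1a2 at 5555 or more on every array. Within that list Dpt, the gene of the matrix protein dermatopontin, had 2725 and 2407 against 204 and 168, with a limma adjusted p of 0.115, and Col1a1 had a difference of 0.82 ± 0.55 (SE) with overlap. Smooth muscle and pericyte markers summed to 7506 and 8734 against 9311 and 18266. Of 7 tested, 3 lay above without overlap, among them the contractile genes Acta2 and Tagln, and 2 below, Pdgfrb and Des. Over all tested genes 16.6% lay above without overlap and 21.8% below. Pdgfrb, a pericyte and fibroblast receptor gene, had 2978 and 3479 against 2123 and 1268. Adipocyte markers summed to 6294 and 8046 against 3802 and 3118, and all 4 tested genes of that list lay below without overlap. Lymphatic markers summed to 1056 and 2091 against 1467 and 1938, of which Pdpn, a gene that fibroblasts also express, made 963 and 1622 against 1237 and 1715. The other tested genes of that list were Lyve1, with 16.5 and 151 against 22.02 and 14.5, and Flt4, with 42.6 and 247 against 161 and 145. Both were highest in Apex replicate 2, while Pdpn was highest in VEGFD replicate 2. The part of these cell types in the differences above was not tested.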

How the data were processed

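The authors deposited a linear intensity for each probe set. The software, algorithm and build used are not named in any label or file header read here. Per the labels' protocols, Affymetrix one-cycle kits turned total RNA into biotin-labelled cRNA. The values show that all arrays were scaled to 1 mean: it was 150 on each once the top and bottom 2% of probe sets were dropped. The median signals were 27.0 and 30.5 for the Apex arrays and 26.3 and 23.9 for the VEGFD arrays. No detection calls were used, and the number of arrays limits the precision. Of 45101 probe sets, 64 were controls, 34945 had 1 gene symbol, 932 several and 9160 none. Symbols came from the platform annotation, and all 10 members matched RefSeq by gene ID.

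Values were used as log2(signal + 16), which understates differences of dim genes. For each gene the probe set of highest mean linear signal was used, and genes were kept when their mean log2 value reached 5.37, the median over probe sets other than controls. Comparison was by limma 3.58.1 (lmFit and trended eBayes, with R 4.3.3), adjusted over 11677 genes at a threshold of 0.05. On simulated data the procedure called 0% of true log2 changes of 1, which is more than the main difference of any member. That a member did not pass is therefore no evidence that it did not change. An exact permutation test of 2 arrays against 2 cannot go below p = 0.333. The rule for named genes took all members and at most 4 genes of each pathway list by size of difference, plus defining markers. Members and lists were chosen with earlier results of these data known, so no list is independent evidence. Alternatives covered the pseudocount, the scaling, the filter, the choice of probe set, the trend, the replicate block and leaving out each array.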

Additional observations from a re-analysis of the deposited data

How the results depend on the processing

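Under all 14 alternatives no member passed the limma threshold, with adjusted p values from 0.257 (Psmb8 without VEGFD replicate 1) to 0.9995, and H2-K1, H2-D1, Psmb8, Tap1, Tapbp and Nlrc5 kept their signs wherever they were tested. The groups of the genes that kept their signs did not overlap, so leaving out 1 array or changing the pseudocount could not change those signs. Tapbp was at -0.24 with its probe sets averaged, and H2-K1 at 0.76. Tap1, Psmb8, Psmb9 and Nlrc5 were not kept by the stricter filter, and Tap1 was not kept with probe sets averaged. The count of genes that passed was 6 with the replicate block, none of them members, and 0 to 372 with 1 array left out (372 without VEGFD replicate 1, 4 without VEGFD replicate 2, 0 without either Apex array). Replicates share only a number, as far as the labels say. Over genes, replicate 1 minus replicate 2 correlated at 0.20 between the groups, with 2 pairs, which does not show a pairing. With 1 array left out, members with all VEGFD arrays above all Apex arrays numbered 3 to 5, where 27.3% to 35.4% of all tested genes did so. Members with all VEGFD arrays below all Apex arrays also numbered 3 to 5, against 32.8% to 42.6% of all tested genes. With median-centred arrays Tap2 was at 0.11. With probe sets averaged Pdia3 was at -0.12 and Psmf1 at -0.25. With 1 array left out the differences ran from -0.17 to 0.14 for Tap2, -0.25 to 0.44 for Psmb10, -0.082 to 0.32 for B2m and -0.34 to 0.067 for Psmb9. For genes of other lists they ran from -0.17 to 0.25 for Psmb5, -0.22 to 0.34 for Psmb6, -0.0020 to 1.31 for H2-M3, -0.30 to 2.45 for Oasl2, -0.21 to 2.19 for Bst2 -0.91 to 0.15 for Irf9, 0.20 to 0.53 for Hspa5, 0.38 to 0.98 for Jak1 and -0.90 to -0.43 for Ifngr1. The causes of these shifts were not tested.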
